A study of Mus musculus with 12 samples.

Results

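DNA replication and S-phase genes were followed as 52 named mouse genes, in C2i-Myog muscle cells, across 4 treatments. The genes were chosen by name and known role, with earlier results of these data in view, so the choice is not independent of their values. They fall into 9 roles: licensing of origins, the replicative helicase, the polymerases, the sliding clamp with its loader, a ligase and nucleases grouped as lagging strand, nucleotide supply, chromatin copying, E2F factors with cyclin E, and the checkpoint at the fork. Each of the 52 was measured, out of 19938 genes that had a transcript cluster (the array's unit, a set of probes for a transcript) carrying exactly 1 gene symbol.

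A cell that divides copies its DNA in S phase. The origin recognition complex with Cdc6 and Cdt1 loads the ring of Mcm proteins onto DNA, Cdc45 and the GINS complex turn that ring into a moving helicase, and polymerases held by the clamp Pcna then copy both strands. Most of these genes are targets of E2F transcription factors, which the retinoblastoma protein holds back, and a myoblast that becomes a muscle fibre leaves the cell cycle and lowers them.

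C2i-Myog is a stable line made from mouse C2C12 myoblasts in which doxycycline (Dox) turns on an added, Flag-tagged copy of myogenin (Myog), a factor that drives muscle differentiation. Cells grown in 10% serum were moved near confluence to 1% horse serum with insulin and transferrin, each at 10 µg/mL, and RNA was taken at 48 h, on 3 arrays per group. The control group had the line and the medium but no drug, Dox had doxycycline at 0.2 µg/mL, SB had 10 µM of SB203580, which blocks the kinases p38α and p38β, and SB+Dox had both. No group had doxycycline without the transgene, so the drug and Myog cannot be told apart. The labels do not say whether the line was a single clone or the replicates separate cultures. The p-values therefore set a difference between groups only against the spread among these arrays, and that spread may be technical. The control samples are taken to be at 48 h of differentiation from the protocol shared by all samples, because their own label names no state. These are bulk RNA samples, in which fewer cells in S phase and less RNA per cell cannot be told apart.

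Every level below is a log2 signal, and a difference of 1 on this scale is a doubling. Medians of the 12 arrays lay between 4.86 and 5.06, and the SD within a group had a median of 0.17 over the 52 genes and of 0.14 over all clusters tested. Myog was higher with doxycycline by 0.46 alone and by 0.64 under the inhibitor, without passing the test (adjusted p = 0.467 and 0.157). With the inhibitor it fell by 2.21 alone (adjusted p = 9.39e-05) and by 2.03 on top of doxycycline (8.86e-05), and in SB+Dox it was 1.58 below the control (0.00162) on the log2 scale. All 11 skeletal muscle markers examined were measured, and their mean on an array ranged from 8.56 to 9.88. Markers of endothelial, leukocyte, adipocyte and epithelial cells had list means of 3.97 to 5.07 on every array, and none of them was called in any comparison.

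Promoter windows, 250 bases before to 50 after a gene's start, could be matched for 42 of the 52 genes (RefSeq, build GRCm38.p6), and 7 of these genes have more than 1 window, for alternative starts. The words searched, on both strands, were 4 that resemble the E2F site (TTTCCCGC, TTTCGCGC, TTTGCCGC and TTTGGCGC), the CCAAT box word CCAAT and the word TTTGAA, part of the element called CHR; TTTCGCGC and TTTGGCGC overlap on opposite strands where both lie in a palindrome-like run. In the first window listed, an E2F-like word stood in 15 of the 42 genes (35.7%), against 2.32% of the 27025 genes with a window. Lig1, Uhrf1 and Dnmt1 hold such a word only in a further window; with every window counted the share was 18 of 42 (42.9%, against 2.6%). In the first window CCAAT stood in 27 genes (64.3%, against 37.9%) and TTTGAA in 6 (14.3%, against 18.1%). The median GC content of that window was 59.2% in the 42 genes and 52.7% in all genes with a window. Its bearing on the shares of these words was not tested. The stretches below show these words in genes whose values carry the results, each 5′ to 3′ along the gene's strand, from the first window, with every searched word on either strand in capitals. From upstream of the start come Cdc6 (chr11:98907998-98908035, plus strand), Mcm5 (chr8:75109341-75109382, plus), Mcm6 (chr1:128359730-128359830, minus), Mcm7 (chr5:138172026-138172063, minus), Pola1 (chrX:93632271-93632308, minus), Rfc3 (chr5:151651209-151651233, minus) and E2f7 (chr10:110745226-110745263, plus), all with an E2F-like word. Rrm2 (chr12:24708189-24708223, plus) and E2f2 (chr4:136172246-136172273, plus) follow with a CCAAT word.
Cdc6: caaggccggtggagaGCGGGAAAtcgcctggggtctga
Mcm5: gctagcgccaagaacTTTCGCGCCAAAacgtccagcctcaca
Mcm6: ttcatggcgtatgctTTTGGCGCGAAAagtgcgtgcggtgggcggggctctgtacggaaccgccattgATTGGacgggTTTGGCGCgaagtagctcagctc
Mcm7: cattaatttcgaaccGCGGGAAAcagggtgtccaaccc
Pola1: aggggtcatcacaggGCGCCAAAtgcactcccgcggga
Rfc3: agtgacgtcgcacgcTTTCGCGCtc
E2f7: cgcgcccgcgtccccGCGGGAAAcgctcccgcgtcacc
Rrm2: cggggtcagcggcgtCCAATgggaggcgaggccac
E2f2: tatatattgtagcagCCAATcgaggcgc
Mcm5 and Mcm6 each hold a run in which TTTCGCGC and TTTGGCGC overlap on opposite strands, and Mcm6 holds a further TTTGGCGC nearer the start, with CCAAT on the opposite strand (ATTGG as printed) between them. A match of letters is a description and not a bound site. Rrm2 has no E2F-like word in its window, and the first E2f2 window has one downstream of the start, outside the stretch shown.

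The 52 genes were lowest in Dox and highest in SB. Their mean log2 level was 6.40, 6.56 and 6.42 on the control arrays, 5.93, 5.94 and 5.75 on the Dox arrays, 6.78, 6.88 and 6.71 on the SB arrays, and 6.19, 6.32 and 6.06 on the SB+Dox arrays. The 4 groups did not overlap in this mean. Gene by gene, the order Dox, SB+Dox, control, SB from low to high was found in 41 of the 52 (78.8%), and in 7.21% of all clusters tested. Dox was the lowest group for 48 genes and SB the highest for 47.

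**Figure D1:**
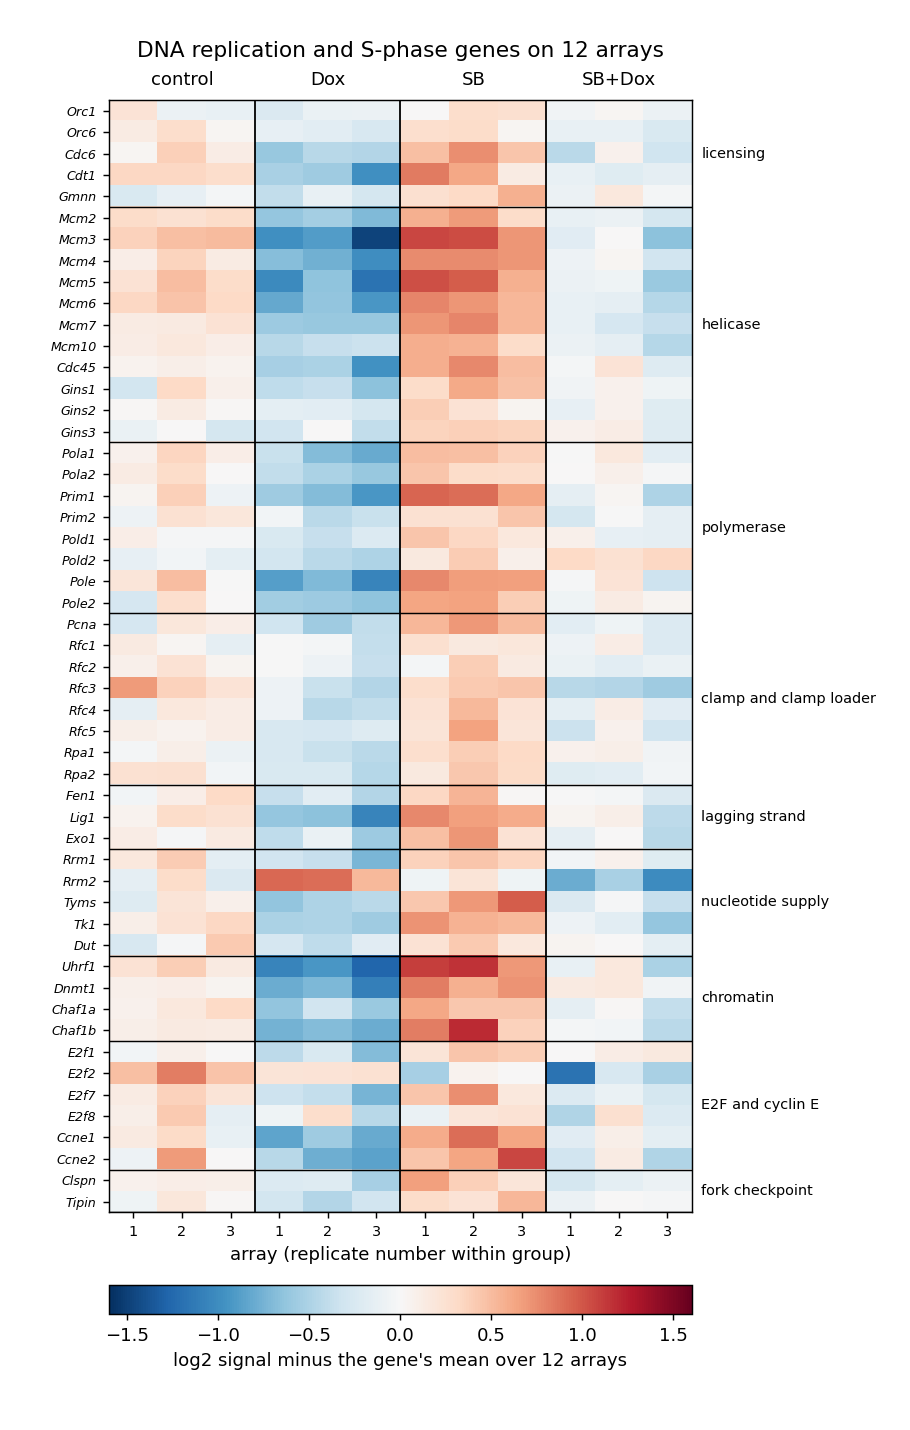
Log2 signal of each of the 52 genes on each of the 12 arrays, minus the gene's own mean over the 12 arrays; columns are arrays by group, lines across separate the 9 roles. Most genes are blue in Dox and red in SB, with Rrm2 red in Dox and blue in SB+Dox.

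With doxycycline alone 33 of the 52 genes fell and 1 rose (Dox against control, median difference -0.53), where 3.88% of all clusters were called lower and 1.43% higher. "Called" means an adjusted p under 0.05 by limma with Benjamini-Hochberg adjustment over all 21789 clusters. Under the inhibitor doxycycline gave 35 lower and 0 higher (SB+Dox against SB, median -0.60), against 2.71% and 4.4% of all clusters. The inhibitor alone gave 14 higher and 1 lower (SB against control, median 0.32), against 2.51% and 3.87%. On top of doxycycline it gave 22 higher and 2 lower (SB+Dox against Dox, median 0.32), against 6.97% and 3.43%. With both agents 1 gene rose and 8 fell against the untreated control (median -0.27), where 2.84% and 2.42% of all clusters were called. The median of all clusters lay between -0.04 and 0.03 in these 5 comparisons. In 43 genes every Dox array lay below every control array (10.8% of all clusters), and in 47 every SB+Dox array below every SB array (12.3%). In 35 every SB array lay above every control array (10.3%), and in 33 every SB+Dox array above every Dox array (15.6%). Some counts moved by more than 1.5 times when an array was left out. The count for SB against control was 6 without SB replicate 2, 7 without SB replicate 1 or control replicate 1, 8 without control replicate 3 and 34 with weights on the arrays, against 15 with all arrays. For SB+Dox against control it was 3 without SB+Dox replicate 3 and 4 without control replicate 2 or 3, against 9. For SB+Dox against SB it was 22 without SB+Dox replicate 3, against 35. Below, a call is said to be lost where leaving out a named array ended it, and the p beside it is the highest over all alternatives tried.

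**Figure D2:**
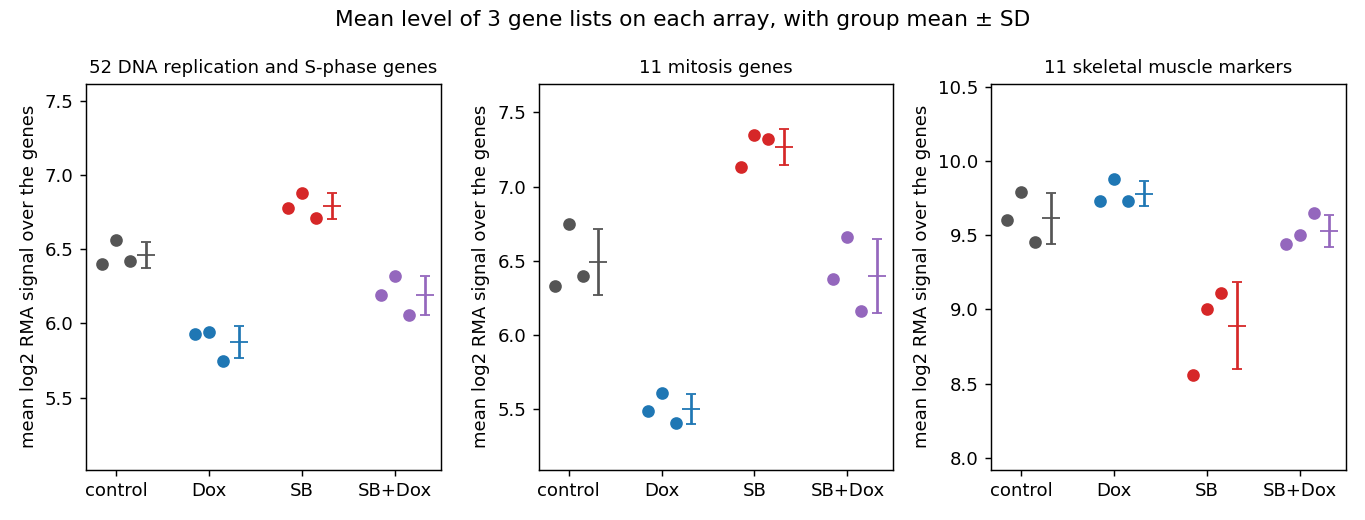
Mean log2 signal over the genes of 3 lists on each array (points, replicates 1 to 3 from the left) with the group mean ± SD (n = 3): the 52 DNA replication and S-phase genes, 11 mitosis genes and 11 skeletal muscle markers. Replication genes and mitosis genes are lowest in Dox and highest in SB, and muscle markers are lowest in SB.

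Licensing genes mark origins before S phase. Cdt1 fell by 1.00 ± 0.16 (SE) in Dox against control, 2.01-fold (adjusted p = 0.00106), and fell by 0.68 ± 0.16 in SB+Dox against SB (adjusted p = 0.015). In SB+Dox against Dox it rose by 0.54 (limma adjusted p = 0.0374). That rise was lost without control replicate 1, Dox replicate 2 or 3 or any 1 SB+Dox replicate (p up to 0.192). Cdt1, which brings the Mcm ring to the origin, stood at 7.20, 7.20 and 7.16 on control arrays, 6.36, 6.31 and 5.89 on Dox arrays, 7.71, 7.49 and 7.0 on SB arrays, and 6.76, 6.68 and 6.73 on SB+Dox arrays. Every Dox array lay below every other array, and the SB+Dox arrays below all control and SB arrays. Geminin (Gmnn), which binds Cdt1 and blocks a repeat of licensing, stood at 3.82, 3.94 and 4.04 on control arrays, 3.67, 3.95 and 3.78 on Dox arrays, 4.32, 4.39 and 4.63 on SB arrays, and 3.97, 4.23 and 4.04 on SB+Dox arrays. Gmnn rose by 0.51 ± 0.11 (SE) in SB against control, 1.43-fold (adjusted p = 0.0123), while its Dox and control arrays overlapped (-0.14, adjusted p = 0.722). Orc1, the largest subunit of the origin recognition complex, was at 4.04, 3.72 and 3.70 on control arrays, 3.59, 3.71 and 3.72 on Dox arrays, 3.83, 4.10 and 4.07 on SB arrays, and 3.76, 3.85 and 3.72 on SB+Dox arrays. Its 12 values spanned 3.59 to 4.10 and it was called in no comparison. Gmnn and Orc1 are dim genes, with means over the 12 arrays below that of the median cluster. Their differences, and the lack of calls in Orc1, may therefore be understated by the signal, which was not tested. Cdc6, the ATPase that works with Cdt1, fell by 0.68 with doxycycline alone (adjusted p = 0.00643) and by 0.78 under the inhibitor (0.00273), and Orc6 fell under the inhibitor only by the test (-0.36, adjusted p = 0.0407; -0.34, adjusted p = 0.0667 without it). The difference between these 2 Orc6 values was -0.02 (adjusted p = 0.968). The Gmnn call was lost without control replicate 1 (p up to 0.0639), that of Cdt1 in SB+Dox against SB without SB replicate 1 or 2 or SB+Dox replicate 2 or 3 (p up to 0.0755), and that of Orc6 without control replicate 1, Dox replicate 1 or 2, SB replicate 1 or 2 or any 1 SB+Dox replicate (p up to 0.176).

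The 6 subunits of the Mcm ring moved together. Mcm2, Mcm3, Mcm4, Mcm5, Mcm6 and Mcm7 fell with doxycycline alone by 0.90, 1.58, 1.01, 1.28, 1.16 and 0.76, and under the inhibitor by 0.68, 1.21, 0.86, 1.11, 0.91 and 0.93. All 12 of these differences were called. Mcm3 had the largest fall of the 52 genes in both comparisons, with 7.67, 7.78 and 7.80 on control arrays, 6.31, 6.40 and 5.82 on Dox arrays, 8.36, 8.34 and 8.0 on SB arrays, and 7.12, 7.30 and 6.64 on SB+Dox arrays. Mcm3 fell by 1.58 ± 0.17 (SE) in Dox against control, 2.98-fold (adjusted p = 0.000102), and the 3 Dox arrays lay below the 9 others. Mcm5 stood at 7.10, 7.36 and 7.16 on control arrays, 5.85, 6.23 and 5.69 on Dox arrays, 7.90, 7.84 and 7.44 on SB arrays, and 6.78, 6.80 and 6.27 on SB+Dox arrays. Mcm5 fell by 1.28 ± 0.17 (SE) in Dox against control, 2.43-fold (adjusted p = 0.000343). Mcm6 stood at 7.80, 7.92 and 7.79 on control arrays, 6.65, 6.84 and 6.54 on Dox arrays, 8.25, 8.17 and 8.0 on SB arrays, and 7.35, 7.32 and 7.01 on SB+Dox arrays. Mcm6 fell by 1.16 ± 0.11 (SE) in Dox against control, 2.23-fold (adjusted p = 4.21e-05), the lowest adjusted p among the 52 genes in that comparison. In Mcm3, Mcm5 and Mcm6 the SB+Dox arrays lay between the Dox and the control arrays without overlap.

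The same subunits were higher with the inhibitor on top of doxycycline, by 0.46, 0.84, 0.70, 0.69, 0.55 and 0.34 in numerical order, and all 6 were called in SB+Dox against Dox. In SB against control only Mcm4 (0.55, adjusted p = 0.00836) and Mcm7 (0.51, adjusted p = 0.00446) passed; the other 4 differences were 0.24 to 0.52. Mcm4 stood at 7.24, 7.49 and 7.27 on control arrays, 6.46, 6.37 and 6.14 on Dox arrays, 7.90, 7.89 and 7.84 on SB arrays, and 7.06, 7.17 and 6.83 on SB+Dox arrays. Mcm7 stood at 7.31, 7.32 and 7.41 on control arrays, 6.60, 6.57 and 6.57 on Dox arrays, 7.88, 7.96 and 7.71 on SB arrays, and 7.06, 6.91 and 6.80 on SB+Dox arrays. In both genes the SB arrays lay above all others and the Dox arrays below all others. Mcm2 stood at 8.19, 8.13 and 8.19 on control arrays, 7.27, 7.35 and 7.18 on Dox arrays, 8.46, 8.57 and 8.19 on SB arrays, and 7.77, 7.80 and 7.61 on SB+Dox arrays. Its lowest SB array and its 2 highest control arrays were all at 8.19, and the Dox arrays lay below all others. Against the untreated control, SB+Dox was lower in Mcm2 (-0.45, adjusted p = 0.0208), Mcm3 (-0.73, 0.0209), Mcm6 (-0.61, 0.00462) and Mcm7 (-0.42, 0.0163). Of these the Mcm6 call held in all 23 alternatives, while Mcm2 lost its call without any 1 control replicate or SB+Dox replicate 1 or 3 (p up to 0.106), Mcm3 without control replicate 2 or 3 or SB+Dox replicate 3 (p up to 0.102) and Mcm7 without control replicate 3 or SB+Dox replicate 2 or 3 (p up to 0.093). In SB+Dox against Dox, Mcm5 lost its call without Dox replicate 1 or 3 or SB+Dox replicate 1 or 2 (p up to 0.0811) and Mcm7 without any 1 Dox replicate or SB+Dox replicate 1 or 2 (p up to 0.147).

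The ring becomes a helicase with Cdc45 and the GINS proteins. Cdc45 stood at 6.21, 6.25 and 6.21 on control arrays, 5.62, 5.65 and 5.19 on Dox arrays, 6.74, 6.93 and 6.65 on SB arrays, and 6.12, 6.37 and 5.95 on SB+Dox arrays. Cdc45 rose by 0.55 ± 0.13 (SE) in SB against control, 1.46-fold (adjusted p = 0.0223), and rose by 0.66 ± 0.13 in SB+Dox against Dox (adjusted p = 0.00394). Doxycycline lowered it by 0.74 alone (adjusted p = 0.00324) and by 0.62 under the inhibitor (0.0099). Gins1 stood at 4.23, 4.84 and 4.60 on control arrays, 4.12, 4.16 and 3.87 on Dox arrays, 4.82, 5.13 and 4.99 on SB arrays, and 4.47, 4.59 and 4.45 on SB+Dox arrays. Gins3 stood at 5.20, 5.32 and 5.03 on control arrays, 5.0, 5.31 and 4.92 on Dox arrays, 5.66, 5.69 and 5.67 on SB arrays, and 5.38, 5.43 and 5.10 on SB+Dox arrays. Gins3 rose with the inhibitor alone (0.49, adjusted p = 0.0247) and had no call with doxycycline (-0.11, adjusted p = 0.831, and -0.37, 0.0862), and Gins1 fell with doxycycline alone (-0.51, adjusted p = 0.0488) and rose in SB+Dox against Dox (0.46, 0.0498). Gins2 was called in no comparison (differences of -0.31 to 0.17). Mcm10, which helps to start the fork, fell by 0.51 and 0.71 with doxycycline (adjusted p = 0.00967 and 0.00124). The Gins1 calls were lost without control replicate 2 or 3, any 1 Dox replicate, SB replicate 2 or 3 or any 1 SB+Dox replicate (p up to 0.226) in Dox against control and without control replicate 3, any 1 Dox replicate, SB replicate 2 or 3 or any 1 SB+Dox replicate (p up to 0.215) in SB+Dox against Dox. In SB against control Cdc45 lost its call without any 1 control replicate or SB replicate 1 or 2 (p up to 0.115) and Gins3 without control replicate 1 or 3 or SB replicate 1 or 2 (p up to 0.1), and in SB+Dox against SB Cdc45 lost it without SB replicate 2 or SB+Dox replicate 3 (p up to 0.0638).

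Among the 8 polymerase and primase genes 5 fell with doxycycline alone (3.88% of all clusters), 6 fell with it under the inhibitor (2.71%), 2 rose with the inhibitor alone (2.51%) and 6 rose in SB+Dox against Dox (6.97%). Pole, the catalytic subunit of the leading-strand polymerase ε, stood at 5.69, 5.99 and 5.49 on control arrays, 4.62, 4.79 and 4.44 on Dox arrays, 6.27, 6.16 and 6.15 on SB arrays, and 5.48, 5.71 and 5.16 on SB+Dox arrays. Pole fell by 1.10 ± 0.15 (SE) in Dox against control, 2.15-fold (adjusted p = 0.000364), and rose by 0.83 ± 0.15 in SB+Dox against Dox (adjusted p = 0.0016). Its smaller partner Pole2 stood at 4.49, 5.03 and 4.77 on control arrays, 4.21, 4.18 and 4.12 on Dox arrays, 5.39, 5.41 and 5.15 on SB arrays, and 4.69, 4.89 and 4.81 on SB+Dox arrays. Pole2 rose with the inhibitor alone (0.55, adjusted p = 0.0148) and on top of doxycycline (0.62, adjusted p = 0.00383). Prim1, the catalytic subunit of primase, which lays the RNA primers, stood at 6.02, 6.36 and 5.90 on control arrays, 5.41, 5.29 and 5.05 on Dox arrays, 6.91, 6.88 and 6.60 on SB arrays, and 5.84, 6.01 and 5.49 on SB+Dox arrays. Prim1 rose by 0.70 ± 0.15 (SE) in SB against control, 1.63-fold (adjusted p = 0.0114), the second highest difference of the 52 genes in that comparison, and fell by 1.01 ± 0.15 in SB+Dox against SB (adjusted p = 0.00114). It also rose by 0.53 in SB+Dox against Dox (limma adjusted p = 0.0362). That call was lost without Dox replicate 2 or 3 or SB+Dox replicate 1 or 2 (p up to 0.176). Pola1, the catalytic subunit of polymerase α, stood at 5.43, 5.70 and 5.47 on control arrays, 5.0, 4.67 and 4.56 on Dox arrays, 5.86, 5.85 and 5.73 on SB arrays, and 5.36, 5.53 and 5.19 on SB+Dox arrays. Its partner Pola2 stood at 6.63, 6.79 and 6.51 on control arrays, 6.11, 6.0 and 5.89 on Dox arrays, 6.94, 6.79 and 6.78 on SB arrays, and 6.51, 6.58 and 6.48 on SB+Dox arrays. In Pola1 and Pola2 the Dox arrays lay below the 9 others (-0.79, adjusted p = 0.00125, and -0.65, 0.000869, against control), and both rose in SB+Dox against Dox (0.62, adjusted p = 0.00425, and 0.52, 0.00228). Prim2 and Pold1 fell only in SB+Dox against SB by the test (-0.46 and -0.38, adjusted p = 0.0355 and 0.0295). In SB against control the call of Prim1 was lost without control replicate 3 or SB replicate 1 or 2 (p up to 0.0586) and that of Pole2 without control replicate 1 or SB replicate 1 or 2 (p up to 0.0754). In SB+Dox against SB that of Prim2 was lost without any 1 SB replicate or SB+Dox replicate 1 or 3 (p up to 0.131) and that of Pold1 without SB replicate 1 or 2 or SB+Dox replicate 2 or 3 (p up to 0.14).

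Pold2, a subunit of the lagging-strand polymerase δ, was the only gene of the 52 whose mean was highest in SB+Dox. It stood at 7.68, 7.77 and 7.65 on control arrays, 7.52, 7.37 and 7.31 on Dox arrays, 7.97, 8.21 and 7.89 on SB arrays, and 8.13, 8.05 and 8.14 on SB+Dox arrays. Its SB+Dox arrays, at 8.05 to 8.14, lay above all control and Dox arrays and within the range of the SB arrays. Pold2 rose by 0.71 ± 0.10 (SE) in SB+Dox against Dox, 1.64-fold (adjusted p = 0.000253), and it rose by 0.40 against the untreated control (adjusted p = 0.0276), the only gene of the 52 called higher there. Doxycycline under the inhibitor left a difference of 0.08 (95% interval -0.13 to 0.30). Without the inhibitor it was -0.31 (adjusted p = 0.112), and the difference between both settings was 0.39 (adjusted p = 0.274). The call against control was lost without any 1 control replicate or any 1 SB+Dox replicate (p up to 0.105). That against Dox held in all 23 alternatives.

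Of the 8 genes of the clamp, its loader and the protein that coats single strands, 4 fell with doxycycline alone (3.88% of all clusters), 4 fell with it under the inhibitor (2.71%) and 2 rose with the inhibitor alone (2.51%). In SB+Dox against Dox 1 of the 8 rose (12.5%, against 6.97%), a share near the background. Pcna, the sliding clamp, stood at 7.62, 8.06 and 7.99 on control arrays, 7.56, 7.32 and 7.49 on Dox arrays, 8.42, 8.58 and 8.39 on SB arrays, and 7.71, 7.81 and 7.66 on SB+Dox arrays. Pcna rose by 0.58 ± 0.12 (SE) in SB against control, 1.49-fold (adjusted p = 0.007), with all SB arrays above all others, and fell by 0.74 ± 0.12 in SB+Dox against SB (adjusted p = 0.00155). The array carries a further cluster for Pcna with the same differences to within 0.01, which is not an independent measurement. Rpa1, the large subunit of the protein that coats single DNA strands, stood at 7.31, 7.43 and 7.25 on control arrays, 7.08, 6.98 and 6.91 on Dox arrays, 7.61, 7.73 and 7.66 on SB arrays, and 7.41, 7.44 and 7.28 on SB+Dox arrays. It rose with the inhibitor in both settings (0.34, adjusted p = 0.0357, and 0.38, 0.0113), and fell with doxycycline alone (-0.34, adjusted p = 0.0421). Of the loader subunits, Rfc1, Rfc2 and Rfc4 were called in no comparison and Rfc5 fell only in SB+Dox against SB (-0.54, adjusted p = 0.019). Rpa2 fell with doxycycline in both settings (-0.47, adjusted p = 0.021, and -0.44, 0.0259). Pcna was also called in Dox against control (-0.43, adjusted p = 0.0452), a call that did not hold without control replicate 2 or 3, any 1 Dox replicate, SB replicate 1 or 2 or any 1 SB+Dox replicate (p up to 0.193). The Rpa1 calls were lost without control replicate 1 or 3, any 1 SB replicate or SB+Dox replicate 1 (p up to 0.145) in SB against control, without Dox replicate 3 or SB+Dox replicate 2 (p up to 0.0607) in SB+Dox against Dox and without control replicate 1 or 2, any 1 Dox replicate, SB replicate 2 or SB+Dox replicate 1 or 2 (p up to 0.179) in Dox against control. Rpa2 lost its calls without control replicate 1 or 2 or Dox replicate 3 (p up to 0.117) in Dox against control and without SB replicate 2 or any 1 SB+Dox replicate (p up to 0.122) in SB+Dox against SB, and Rfc5 without SB replicate 2 or SB+Dox replicate 1 or 3 (p up to 0.101).

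Rfc3, another subunit of the loader, fell with doxycycline and had no difference with the inhibitor that passed. It stood at 6.73, 6.41 and 6.26 on control arrays, 5.96, 5.69 and 5.57 on Dox arrays, 6.32, 6.46 and 6.49 on SB arrays, and 5.60, 5.57 and 5.47 on SB+Dox arrays. The 3 SB+Dox arrays lay below all control and SB arrays, and overlapped those of Dox. Rfc3 fell by 0.73 ± 0.13 (SE) in Dox against control, 1.66-fold (adjusted p = 0.00251), and fell by 0.87 ± 0.13 in SB+Dox against SB (adjusted p = 0.000894). Against the untreated control SB+Dox was 1.89-fold lower (-0.92 ± 0.13, adjusted p = 0.000536), and that call held in all 23 alternatives. The inhibitor gave -0.04 alone (95% interval -0.31 to 0.23) and -0.19 on top of doxycycline (-0.46 to 0.08).

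In the lagging-strand group, Lig1, the ligase that seals that strand, stood at 6.25, 6.48 and 6.43 on control arrays, 5.57, 5.54 and 5.14 on Dox arrays, 6.96, 6.85 and 6.79 on SB arrays, and 6.23, 6.28 and 5.77 on SB+Dox arrays. Lig1 fell by 0.97 ± 0.14 (SE) in Dox against control, 1.96-fold (adjusted p = 0.000706), and rose by 0.68 ± 0.14 in SB+Dox against Dox (adjusted p = 0.00545). Its Dox arrays lay below the 9 others. The flap nuclease gene Fen1 was called in no comparison (-0.46, adjusted p = 0.0718, in Dox against control), and the nuclease gene Exo1 fell in SB+Dox against SB (-0.67, adjusted p = 0.0112), a call that did not hold without SB replicate 2 or SB+Dox replicate 3 (p up to 0.0714).

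Rrm2, the small subunit of ribonucleotide reductase, which makes the building blocks of DNA, rose with doxycycline alone and fell with it under the inhibitor. It stood at 7.60, 8.03 and 7.51 on control arrays, 8.66, 8.64 and 8.26 on Dox arrays, 7.67, 7.95 and 7.67 on SB arrays, and 6.95, 7.22 and 6.73 on SB+Dox arrays. The Dox arrays were the highest of the 12 and the SB+Dox arrays the lowest, and neither overlapped any other group; control and SB overlapped. Doxycycline alone raised Rrm2 by 0.81 ± 0.16 (SE), 1.75-fold (adjusted p = 0.00641), the only rise among the 52 genes in Dox against control. Under the inhibitor doxycycline lowered it by 0.79 ± 0.16, 1.73-fold (adjusted p = 0.00695). The inhibitor made a difference of 0.05 alone (95% interval -0.29 to 0.39) and lowered Rrm2 by 1.55 ± 0.16, 2.93-fold, on top of doxycycline (adjusted p = 1.82e-05). Against the untreated control SB+Dox had a difference of -0.74 (adjusted p = 0.0125), a call that did not hold without control replicate 2 or SB+Dox replicate 3 (p up to 0.0687). The doxycycline difference with the inhibitor minus that without it was -1.6 ± 0.23 (95% interval -2.08 to -1.12, adjusted p = 0.00852), the only such interaction called among the 52, where 0.895% of all clusters were called. Adjusted p for it ran from 0.00026 to 0.088 over the alternatives and exceeded 0.05 only where clusters with several symbols or none were tested too.

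None of the other 4 nucleotide genes had an interaction that passed. Rrm1, the large subunit of the same enzyme, fell with doxycycline alone (-0.61, adjusted p = 0.0161) and had an interaction of 0.17 (adjusted p = 0.787). Tyms, which makes thymidylate, stood at 5.56, 5.97 and 5.85 on control arrays, 5.13, 5.27 and 5.33 on Dox arrays, 6.20, 6.46 and 6.74 on SB arrays, and 5.53, 5.75 and 5.40 on SB+Dox arrays. Tyms rose by 0.68 ± 0.14 (SE) in SB against control, 1.6-fold (adjusted p = 0.00922), and fell by 0.91 ± 0.14 in SB+Dox against SB (adjusted p = 0.00142). All SB arrays of Tyms lay above all others. Tk1, which salvages thymidine, fell with doxycycline in both settings (-0.74, adjusted p = 0.00221, and -0.89, 0.000826). A dimmer cluster for Tk1 had -0.91 and -1.02. With the inhibitor Tk1 differed by 0.38 alone (adjusted p = 0.102) and by 0.23 on top of doxycycline (0.326). The dimmer cluster had 0.49 and 0.38. The mean of both clusters was called in SB against control (0.43, limma adjusted p = 0.0429). Tk1 was also lower in SB+Dox than in the untreated control (-0.51, adjusted p = 0.0297), a call that did not hold without control replicate 2 or 3 or SB+Dox replicate 3 (p up to 0.127). Dut, which removes dUTP, was called in no comparison. The Tyms call in SB against control was lost without control replicate 1 (p up to 0.0524), and the Rrm1 call in Dox against control without control replicate 1 or 2 or Dox replicate 3 (p up to 0.0943).

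**Figure D3:**
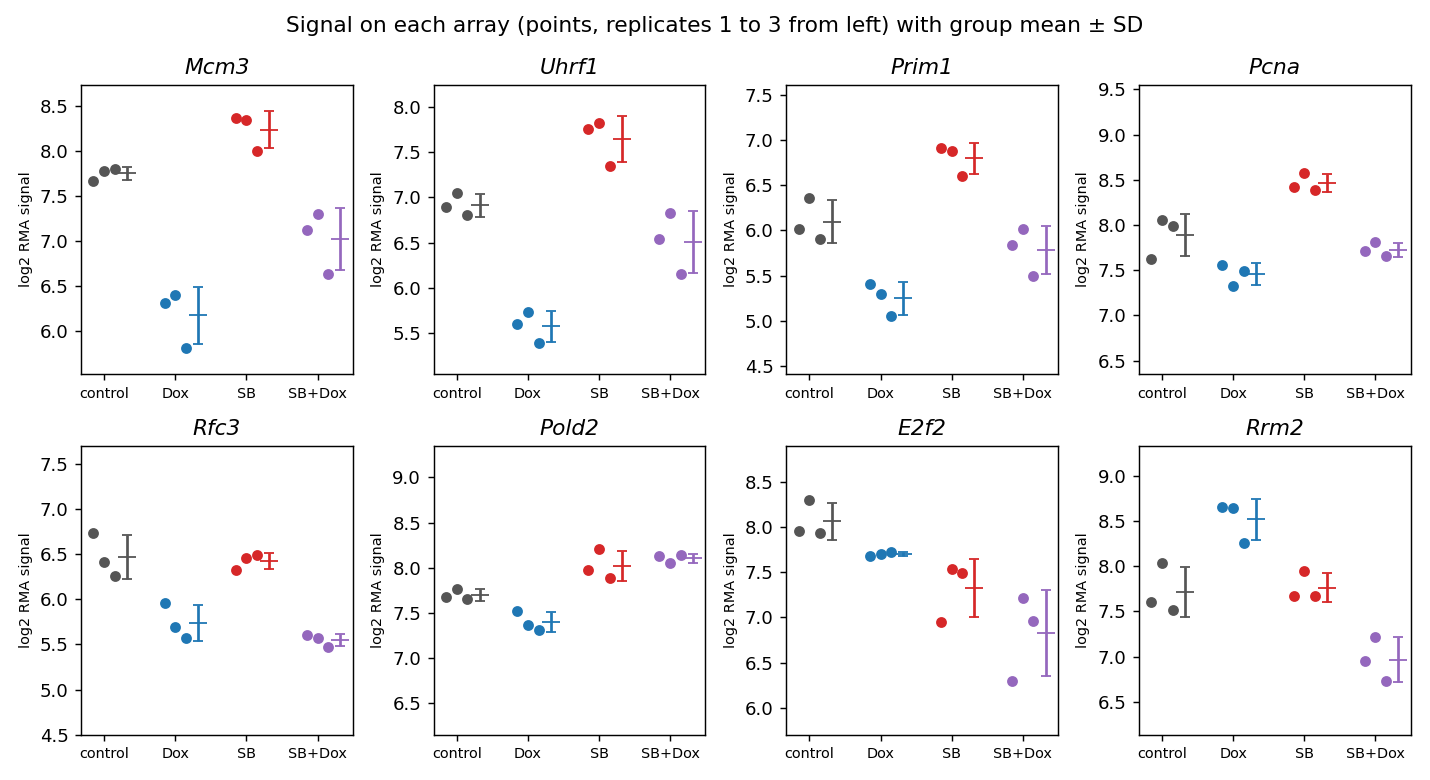
Log2 RMA signal of 8 genes on each array (points, replicates 1 to 3 from the left in each group) with the group mean ± SD (n = 3); the axes differ in position but span the same range. Mcm3, Uhrf1, Prim1 and Pcna are lowest in Dox and highest in SB, whereas Rrm2 is highest in Dox and lowest in SB+Dox, and E2f2 is lower on every array with the inhibitor.

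All 4 genes that copy chromatin marks and nucleosomes fell with doxycycline in both settings. Uhrf1, which binds newly copied DNA and brings in the DNA methyltransferase, stood at 6.89, 7.05 and 6.80 on control arrays, 5.60, 5.73 and 5.39 on Dox arrays, 7.76, 7.82 and 7.35 on SB arrays, and 6.54, 6.83 and 6.15 on SB+Dox arrays. Uhrf1 fell by 1.34 ± 0.16 (SE) in Dox against control, 2.53-fold (adjusted p = 0.000188), and fell by 1.14 ± 0.16 in SB+Dox against SB (adjusted p = 0.000826). Its rise with the inhibitor alone, 0.73 ± 0.16 (1.66-fold, adjusted p = 0.013), was the highest of the 52. Dnmt1, the maintenance DNA methyltransferase, stood at 7.79, 7.82 and 7.76 on control arrays, 6.92, 7.0 and 6.62 on Dox arrays, 8.53, 8.29 and 8.44 on SB arrays, and 7.86, 7.89 and 7.66 on SB+Dox arrays. Dnmt1 rose by 0.96 ± 0.11 (SE) in SB+Dox against Dox, 1.94-fold (adjusted p = 4.86e-05), the highest of the 52 in that comparison. In SB+Dox the level of Dnmt1 differed by 0.01 from the untreated control (95% interval -0.22 to 0.25). Chaf1b, a subunit of the histone chaperone CAF-1, stood at 6.45, 6.5 and 6.48 on control arrays, 5.60, 5.66 and 5.56 on Dox arrays, 7.18, 7.55 and 6.72 on SB arrays, and 6.33, 6.31 and 5.92 on SB+Dox arrays. SB replicates ranged from 6.72 to 7.55 and all lay above all other arrays. It rose with the inhibitor in both settings (0.68, adjusted p = 0.0218, and 0.58, 0.0334), while its partner Chaf1a had 0.31 (adjusted p = 0.179) and 0.34 (0.0992). The 4 Dnmt1 calls held in all 23 alternatives. In SB against control, Uhrf1 lost its call without control replicate 3 or SB replicate 1 or 2 (p up to 0.0744) and Chaf1b without any 1 control replicate or SB replicate 1 or 2 (p up to 0.106). In SB+Dox against Dox, Chaf1b lost it without any 1 Dox replicate or SB+Dox replicate 1 or 2 (p up to 0.133).

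E2F factors drive S-phase genes, and cyclin E with its kinase starts S phase. Ccne1, the gene of cyclin E1, stood at 7.04, 7.20 and 6.77 on control arrays, 6.05, 6.32 and 6.09 on Dox arrays, 7.49, 7.79 and 7.53 on SB arrays, and 6.71, 6.99 and 6.74 on SB+Dox arrays. Ccne1 rose by 0.60 ± 0.13 (SE) in SB against control, 1.52-fold (adjusted p = 0.01), and fell by 0.85 ± 0.13 in Dox against control (adjusted p = 0.000878). The 3 SB arrays lay above and the 3 Dox arrays below all others. E2f1, an activating E2F, stood at 6.33, 6.45 and 6.37 on control arrays, 5.95, 6.12 and 5.68 on Dox arrays, 6.57, 6.81 and 6.76 on SB arrays, and 6.37, 6.49 and 6.53 on SB+Dox arrays. It fell with doxycycline alone (-0.46, adjusted p = 0.0234) and rose in SB+Dox against Dox (0.55, adjusted p = 0.00479). E2f8, a repressive E2F, stood at 6.81, 7.14 and 6.58 on control arrays, 6.65, 7.0 and 6.28 on Dox arrays, 6.61, 6.91 and 6.95 on SB arrays, and 6.24, 6.98 and 6.5 on SB+Dox arrays. Its groups overlapped in all comparisons and it was called in none. E2f7, its relative, fell with doxycycline in both settings (-0.72, adjusted p = 0.00556, and -0.65, 0.0102), as did Ccne2, the gene of cyclin E2 (-0.90, adjusted p = 0.0194, and -0.93, 0.0134). The E2f1 call in Dox against control was lost without any 1 control replicate or Dox replicate 1 or 3 (p up to 0.13), and the Ccne1 call in SB against control without SB replicate 2 (p up to 0.0628). Ccne2 lost its calls without control replicate 2 or Dox replicate 2 or 3 (p up to 0.0956) in Dox against control and without SB+Dox replicate 3 (p up to 0.079) in SB+Dox against SB, and E2f7 the latter without SB replicate 2 or SB+Dox replicate 3 (p up to 0.0567).

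E2f2, a further activating E2F, was lower with the inhibitor. It stood at 7.96, 8.30 and 7.93 on control arrays, 7.68, 7.70 and 7.72 on Dox arrays, 6.95, 7.53 and 7.49 on SB arrays, and 6.30, 7.22 and 6.96 on SB+Dox arrays. All 6 arrays with the inhibitor lay below all 6 without it. The inhibitor lowered E2f2 by 0.74 ± 0.20 alone (1.67-fold, adjusted p = 0.038) and by 0.88 ± 0.20 on top of doxycycline (1.84-fold, adjusted p = 0.00906), the only gene of the 52 lower in both. SB+Dox was 2.36-fold lower than the untreated control (-1.24 ± 0.20, adjusted p = 0.00182). Doxycycline gave -0.36 (adjusted p = 0.478) and -0.50 (adjusted p = 0.168). Replicate 1 was the lowest array of both the SB and the SB+Dox group, at 6.95 and 6.30. The call in SB against control was lost without any 1 control replicate, any 1 Dox replicate or SB replicate 1 or 2 (p up to 0.17), whereas those in SB+Dox against Dox and against control held in all 23 alternatives.

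At the fork, Tipin, which steadies a stalled fork, fell with doxycycline in both settings (-0.40, adjusted p = 0.0326, and -0.38, 0.0373), and Clspn, the gene of claspin, fell in SB+Dox against SB (-0.59, adjusted p = 0.00766; -0.41, adjusted p = 0.0677, in Dox against control). Tipin lost its calls without control replicate 2 or 3 or any 1 Dox replicate (p up to 0.152) in Dox against control and without Dox replicate 1, SB replicate 1 or 3 or any 1 SB+Dox replicate (p up to 0.126) in SB+Dox against SB.

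Dox against control and SB+Dox against SB share no arrays, though they share the estimate of spread. Of the 33 genes lower in the first and the 35 lower in the second, 28 were lower in both, 84.8% and 80% of each list. Of all clusters 1.52% were lower in both. Calls held in every alternative for 25 of the 34 genes called in the first, in either direction, and for 22 of the 35 in the second. Among the 28, the Dox against control calls of Pcna and Tyms held in 8 and 15 of 23 alternatives. The SB+Dox against SB call of Pola1 held in 14 of 23. Across the 52 genes the differences correlated with r = 0.65 and rho = 0.76, as a description, because genes on the same arrays are not independent. No gene but Rrm2 had opposite signs past the test. Lower in Dox against control alone by the test were Gins1, Pola2, Rpa1, Rrm1 and E2f1, and in SB+Dox against SB alone Orc6, Prim2, Pold1, Rfc5, Exo1, Clspn and Rrm2. Only for Rrm2 did the interaction pass, so the others are not shown to differ. Same-numbered SB and SB+Dox arrays deviated together, and in the fit with that number as a block 41 genes were lower in that comparison, Gmnn, Gins1, Gins3, Pola2, Rpa1 and Rrm1 in addition (adjusted p of 0.0156 to 0.0473).

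**Figure D4:**
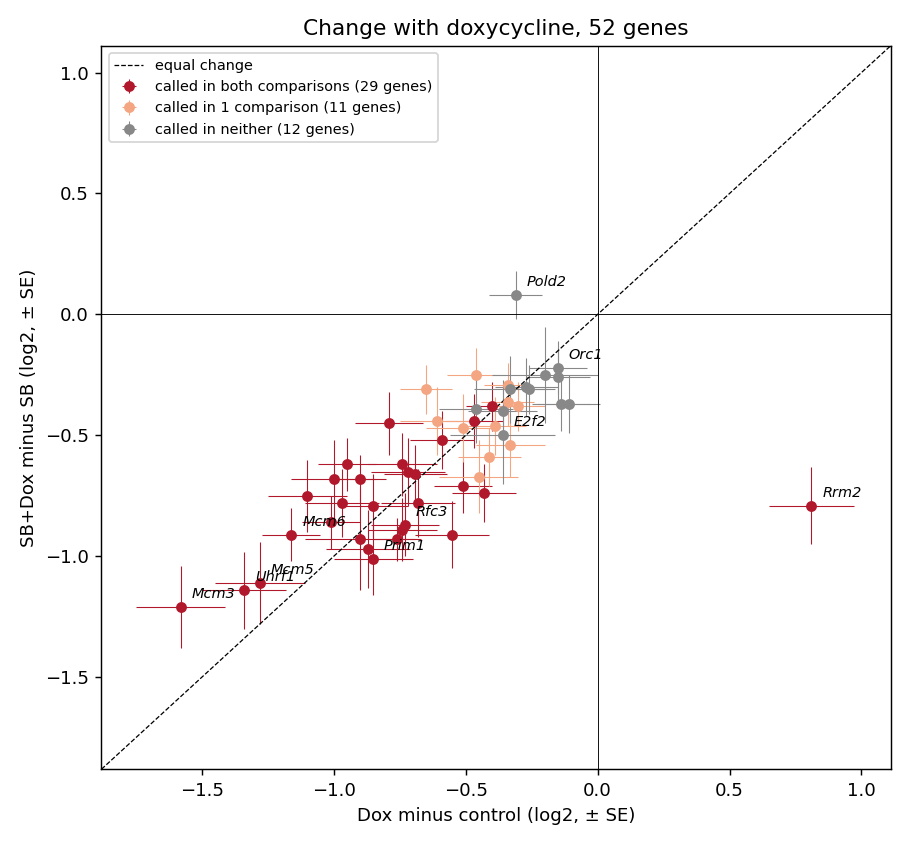
Log2 difference with doxycycline under the inhibitor (SB+Dox minus SB, vertical) against that without it (Dox minus control, horizontal) for the 52 genes, each with its standard error; colours separate genes called in both comparisons, in 1 or in neither, and the dashed line marks equal differences. Nearly all genes lie in the lower left; Rrm2 lies apart at the lower right, and Pold2 is the only gene above 0 on the vertical axis.

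SB against control and SB+Dox against Dox likewise share no arrays. Of the 14 genes higher in the first and the 22 in the second, 10 were higher in both, 71.4% and 45.5% of each list, against 1.9% of all clusters. These were Mcm4, Mcm7, Cdc45, Prim1, Pole2, Rpa1, Uhrf1, Dnmt1, Chaf1b and Ccne1. Of these 10 only Mcm4 and Dnmt1 kept both calls in every alternative. Calls in either direction held in every alternative for 4 of the 15 genes called in the first comparison and 17 of the 24 in the second. The differences correlated across the 52 genes with r = 0.70 and rho = 0.70, again as a description. Gmnn, Gins3, Pcna and Tyms were higher by the test in SB against control alone. In SB+Dox against Dox alone it was 12 genes, among them Mcm2, Mcm3, Mcm5 and Mcm6. None of these had an interaction that passed.

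**Figure D5:**
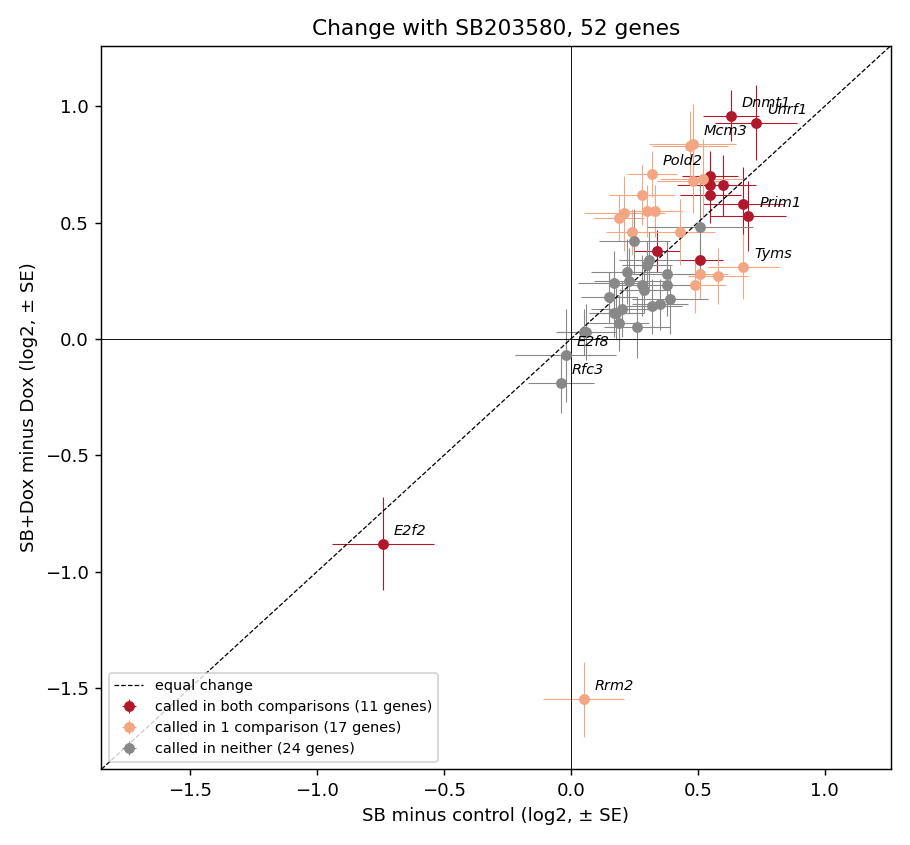
Log2 difference with SB203580 on top of doxycycline (SB+Dox minus Dox, vertical) against that with SB203580 alone (SB minus control, horizontal) for the 52 genes, each with its standard error; colours separate genes called in both comparisons, in 1 or in neither, and the dashed line marks equal differences. Most genes lie in the upper right; E2f2 lies at the lower left, and Rrm2 lies near 0 horizontally and at -1.55 vertically.

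Genes of replication and repair outside the 52 moved the same way in part. Of 49 measured in that list, 20 fell and 1 rose with doxycycline alone (3.88% and 1.43% of all clusters). Under the inhibitor 19 fell and 1 rose with doxycycline (2.71% and 4.4%). With the inhibitor alone 9 rose (2.51%), and with it on top of doxycycline 15 rose (6.97%). Among the 49 were Ccna2, the gene of cyclin A2 (1.00, adjusted p = 0.00285, in SB against control and -1.55, 0.000135, in Dox against control), and Asf1b, a histone chaperone gene (1.02, 0.00159, and -1.35, 0.000188). Pclaf, a Pcna-binding factor, rose by 0.71 and Dtl, which helps to degrade Cdt1, by 0.70 in SB against control (adjusted p = 0.00122 and 0.00193). Mitosis genes moved with the 52: of 11 measured, 10 fell with doxycycline alone (3.88%) and 11 rose with the inhibitor alone (2.51%). Under the inhibitor 11 fell with doxycycline (2.71%), and 9 rose in SB+Dox against Dox (6.97%). Of the 11 muscle markers, 7 fell and 1 rose with the inhibitor alone (3.87% and 2.51%). With doxycycline alone 1 fell and 1 rose (3.88% and 1.43%). In SB+Dox against Dox 4 fell and 1 rose (3.43% and 6.97%), and in SB+Dox against SB 5 rose and 0 fell (4.4% and 2.71%). Their list mean was 9.45 to 9.79 on control arrays and 9.73 to 9.88 on Dox arrays. It was 8.56 to 9.11 on SB arrays and 9.44 to 9.65 on SB+Dox arrays. The part of these shifts in cell state in the results above was not tested.

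Read against the promoter words, the 28 genes lower with doxycycline in both settings included 24 with a promoter window, of which 10 (41.7%) held an E2F-like word in the first window. Among the other 24 genes 18 had a window and 5 of these (27.8%) held such a word there. With every window counted, Lig1, Uhrf1 and Dnmt1 joined the former, 13 of 24 (54.2%), and the latter stayed at 5. CCAAT stood in the first window of 66.7% and 61.1% of the genes. The median GC content of the first window was 57% and 66.2%. These shares are descriptions over few genes.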

How the data were processed

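RNA from 12 samples, 3 in each of the control, Dox, SB and SB+Dox groups named in the sample titles, had been hybridised to Affymetrix whole-transcript arrays. The deposited values are log2 signals, 1 per transcript cluster and array, which the authors made with RMA in Affymetrix Expression Console, per the submitters' processing notes; versions are not given in the sources used here. RMA fits background, quantile normalization and probe summary across arrays, and it compresses differences of dim clusters. Of 35557 clusters 21789 carried exactly 1 gene symbol and were tested, 1621 carried several and 12147 none. A gene with several clusters was given by the one with the highest mean over the 12 arrays.

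Group means were fitted with limma 3.58.1 (lmFit and eBayes with neither a trend nor robust fitting; residual degrees of freedom 8, prior 6.56) in R 4.3.3, with statmod 1.5.0. P-values were adjusted by Benjamini-Hochberg within each of 6 comparisons over all 21789 clusters, and those under 0.05 were called, whatever the fold. The method was run on simulated data, for SB against control only and with noise drawn independently for each cluster. Deviations that genes or arrays share were not part of that simulation. The 52 genes, their roles and the other lists were chosen with earlier results of these data known. Values on every array are printed for genes called with the inhibitor in either setting. They are also printed for the 3 highest and 3 lowest differences of each comparison, and for Rrm2 and E2f2, named beforehand as exceptions. Other genes are given by difference, range or count. Of the 52, all were matched to RefSeq by Entrez identifier. The 3 arrays per group limit the precision.

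After group means were removed, same-numbered SB and SB+Dox arrays correlated at 0.44, 0.19 and 0.49. No other pair of groups had all 3 above 0.1, though Dox and SB+Dox had 0.088, 0.28 and 0.15. The numbers may thus pair the SB and SB+Dox samples, which no label states. The main fit used no block, and the block fit gave each number 1 effect across all 4 groups. Alternatives were a replicate block, median centring, quantile normalization, an eBayes trend, robust eBayes, array weights, leaving out the dimmest 25% or 50% of clusters, testing every cluster, the mean of a gene's clusters, only the groups compared, and leaving out each array in turn.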

Additional observations from a re-analysis of the deposited data

Results flagged for a closer look

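Rrm2, the small subunit of ribonucleotide reductase, had been named beforehand as an exception, with earlier results of these data known. Its adjusted p below is therefore not that of an independent find. It was flagged here because its doxycycline difference with the inhibitor and that without it differed by the test of the difference itself. The former minus the latter was -1.6 ± 0.23 (SE, log2; limma, adjusted p = 0.00852), from 0.81 without the inhibitor and -0.79 with it. All 3 Dox arrays lay above all 3 control arrays, and all 3 SB+Dox arrays below all 3 SB arrays. Leaving out each array in turn gave -1.76 to -1.48. No other of the 52 genes had an interaction that passed.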

How the results depend on the processing

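No called value changed sign under any alternative. Counts of called genes with each array left out in turn ranged from 6 to 20 for SB against control (15 with all arrays), 17 to 24 for SB+Dox against Dox (24), 22 to 36 for SB+Dox against SB (35), 25 to 36 for Dox against control (34), 3 to 13 for SB+Dox against control (9) and 1 to 1 for the interaction (1). Array weights gave 34 in SB against control and 14 in SB+Dox against control. Testing every cluster, which adds those with several symbols or none to the adjustment, gave 7 in SB against control, 4 in SB+Dox against control and 0 in the interaction. With the replicate number as a block the counts were 22, 25, 41, 37 and 16 in the order above and 1 for the interaction. A pairing is inferred only for SB and SB+Dox, and elsewhere the samples may share only a number. Calls held in every alternative for 4 of 15, 17 of 24, 22 of 35, 25 of 34, 3 of 9 and 0 of 1 genes. The arrays have no depth, and signal over background was not measured here, so differences of dim genes may be understated. Among the 52, 6 genes had a mean over the 12 arrays below that of the median cluster. They were Orc1, Gmnn, Gins1, Pole2, Exo1 and Ccne2.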

Other observations

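Of 20 measured genes that control entry into S phase outside the 52, 1 rose and 1 fell with the inhibitor alone (median 0.08; 2.51% and 3.87% of all clusters), and 8 rose with it on top of doxycycline (median 0.26; 6.97%). With doxycycline alone 5 fell (median -0.22; 3.88%), and under the inhibitor 2 rose and 4 fell (median 0.02; 4.4% and 2.71%). Among them Cdk4, a kinase partner of cyclin D, rose with the inhibitor alone (0.35, adjusted p = 0.0242) and fell with doxycycline in both settings (-0.46 and -0.47, limma adjusted p = 0.00402 and 0.00389), in the same order of groups as most of the 52. Cdk6, the other kinase partner, fell with doxycycline alone (-0.54, limma adjusted p = 0.00557) and with the inhibitor alone (-0.51, adjusted p = 0.00801). It rose with the inhibitor on top of doxycycline (0.39, adjusted p = 0.0264), and its interaction passed (0.90, adjusted p = 0.0164). With both agents it differed from the untreated control by -0.15 (adjusted p = 0.563). Ccnd1, the gene of cyclin D1, named after its values were seen, had a mean log2 level of 6.44 ± 0.07 (SD, n = 3) with doxycycline alone, and of 7.78 ± 0.29 in control, 7.86 ± 0.17 with the inhibitor and 7.88 ± 0.27 with both. Its interaction was 1.36 (adjusted p = 0.0135).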
